A study of Arabidopsis thaliana with 6 samples.

Results

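The transcription factors described here decide which cells of the Arabidopsis thaliana epidermis become trichomes, the hairs of leaves and stems, and which root epidermal cells grow a hair. They were chosen by name, as 10 genes of the 26726 in the expression table: GL1, MYB23 and WER, GL3 and EGL3, TTG1, TTG2, and TRY, CPC and ETC1. RNA came from root explants held in continuous light at 22 °C, first for 5 days on CIM, which induces callus, and then for 7 days on SIM, which induces shoots. SIM held the cytokinin N6-(2-isopentenyl)adenine at 1 mg/L and IAA, an auxin, at 0.15 mg/L. The 3 genotypes, with 2 libraries each, were the arr1 single mutant, Pro35SARR1 and wild type (WT), and all had the same culture. ARR1 belongs to the type-B response regulators, DNA-binding proteins at the end of the cytokinin phosphorelay, and in Pro35SARR1 it stands behind the 35S promoter, which is active in most plant tissues. The arr1 allele, the number of Pro35SARR1 lines and the parental accession are not stated in the labels. Whether the libraries of a genotype came from separate cultures is not stated either. The p-values reflect the spread between libraries of the same genotype, pooled over the 3 genotypes and with information shared across genes. This spread is possibly a technical one.

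In leaves and roots of Arabidopsis an R2R3-type MYB protein (GL1 or MYB23 in shoots, WER in roots), a bHLH protein (GL3 or EGL3) and the WD40 protein TTG1 form a complex that activates transcription. The complex switches on GL2, a homeobox gene, and TTG2, a WRKY gene, and also the small R3-type MYB proteins TRY, CPC and ETC1, which move into neighbouring cells and compete there for the bHLH protein. In leaves the cell that keeps an active complex becomes a trichome, whereas in roots the cell with an active complex stays hairless.

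Total estimated counts per library were 8193313 to 9381532, and 18083 genes passed the filter on low counts and were tested. CPM below are estimated counts scaled to library size by TMM, and a count of 3 in each library stood for 0.343 CPM in libraries labelled arr1 and 0.338 CPM in those of Pro35SARR1 and WT. Dividing an estimated count by what 1 sequenced fragment was worth in its library gives the fragments behind a value, and fragment numbers, floors and their intervals cover counting error only. ARR1 itself averaged 59.9 CPM in libraries labelled arr1, 1817 CPM in Pro35SARR1 and 60.6 CPM in WT. The arr1 label thus cannot be checked by the level of ARR1, and directions given for these libraries rest on it. Of the 10 regulators 7 were tested. WER, GL3 and TRY were under the filter and are given as values only. GL1, MYB23 and TTG2 passed it only through the libraries labelled arr1, so a tested difference of these 3 genes was in part fixed by the filter.

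The comparison of arr1 with WT asks how explants labelled as arr1 mutants differ from wild type while they form shoots. In the libraries labelled arr1 the bHLH gene EGL3 and the WRKY gene TTG2 were higher than in WT, EGL3 by 3.02 on the log2 scale and TTG2 at least 10.8-fold. The shoot-type activators GL1 and MYB23 and the repressor CPC had values above WT in both libraries but did not pass the test. TTG1 differed by 0.01 on the log2 scale. Of the 7 regulators tested 2 were called higher and 0 lower by the edgeR quasi-likelihood test at a Benjamini-Hochberg adjusted p under 0.05, where 1.09% of all genes tested were called higher and 1.90% lower. With the replicate number as a block 4 were called higher, CPC and MYB23 in addition, where 6.23% of all genes were called higher and 9.51% lower. In 6 of the 7 both libraries labelled arr1 lay above both WT libraries, which held for 27.1% of all genes tested, while 27.3% had both libraries below those of WT. Among the genes counted here GL1, MYB23 and TTG2 passed the filter on low counts only through the libraries labelled arr1. Set beside the shares of all genes, these counts were thus in part fixed by the filter.

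**Figure D1:**
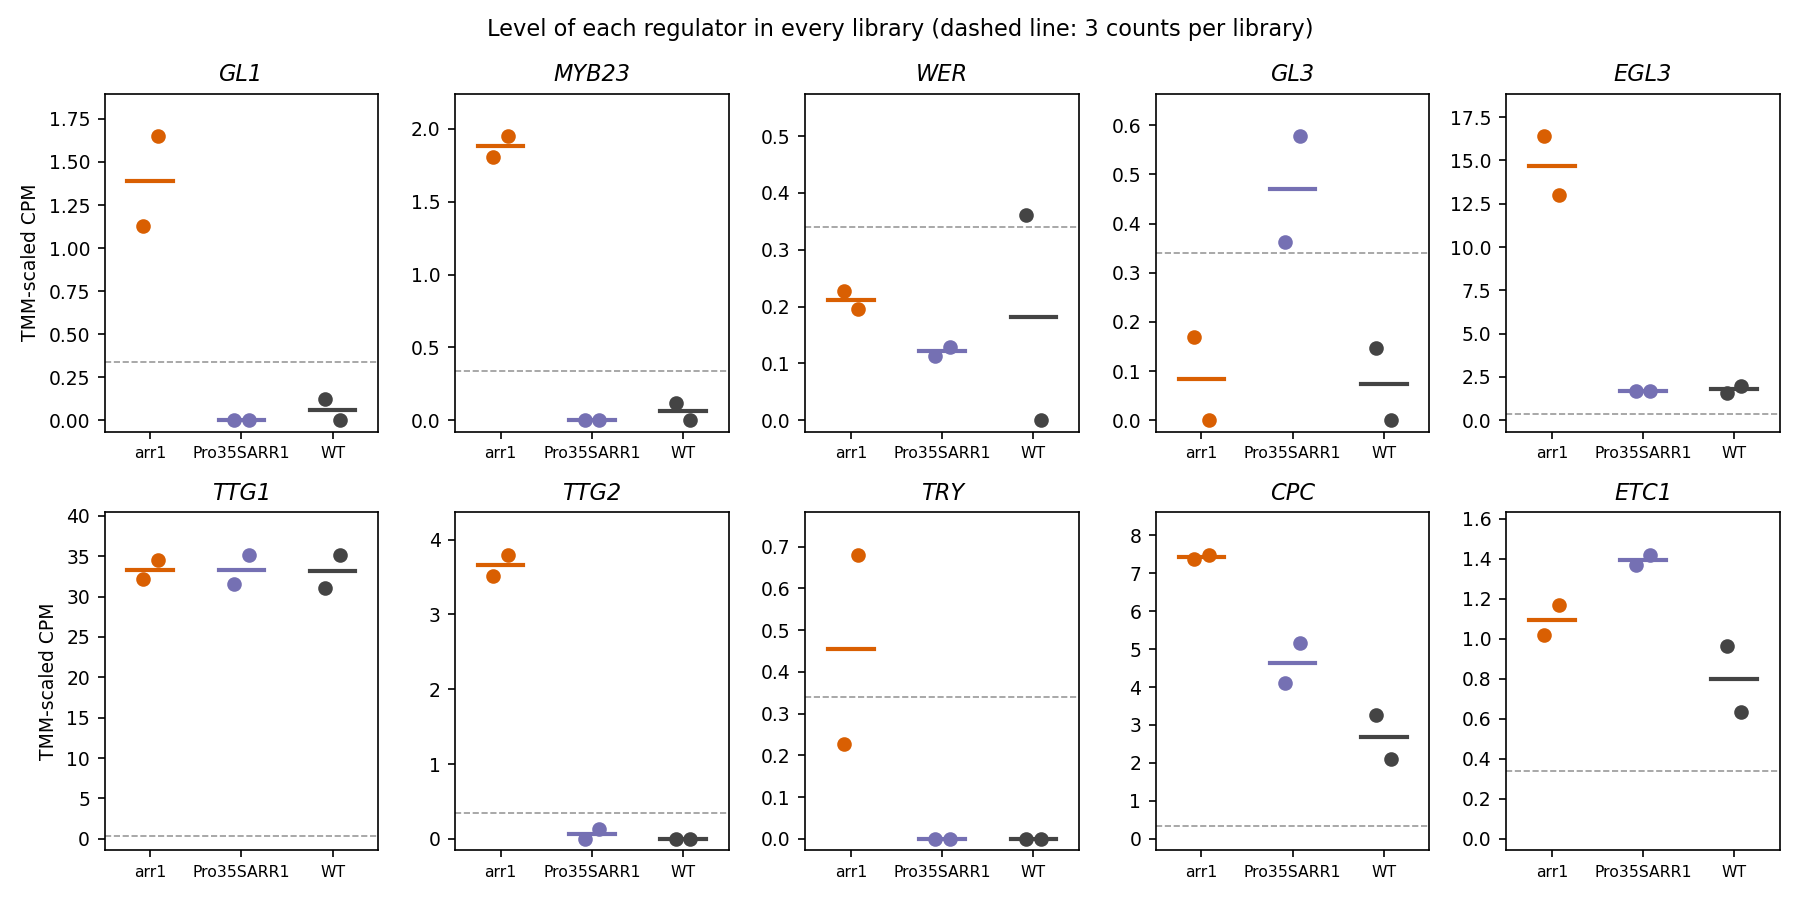
TMM-scaled CPM of the 10 regulators in every library, 1 panel a gene with its own axis from about 0. Points are libraries, bars the mean of 2, and the dashed line is the level of 3 counts in a library. EGL3 stood at 16.4 and 13.0 CPM in libraries labelled arr1 and at or under 2.00 CPM in the other 4, and TTG1 stood between 31.1 and 35.2 CPM in all 6.

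Among the R2R3-MYB activators, GL1 (AT3G27920, chromosome 3, 10361945 to 10363506, minus strand, in the deposited coordinates) is the gene whose loss gives hairless leaves. GL1 had 1.13 and 1.65 CPM in libraries labelled arr1, against 0.121 and 0 CPM in WT. These values rest on 10 and 17 fragments in the libraries labelled arr1 and on 1 and 0 fragments in WT. The libraries of the 2 genotypes did not overlap, and the ratio of fragments scaled for library size was 27.5 (95% exact binomial interval 4.53 to 1125). The difference did not pass the test (log2 fold change 4.36, SE 1.08, adjusted p = 0.111).

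MYB23 (AT5G40330, chromosome 5, 16127725 to 16129655, plus strand) is a close relative of GL1 that acts with it in trichomes and is also expressed in the hairless cells of the root. MYB23 had 1.81 and 1.95 CPM in libraries labelled arr1, against 0.121 and 0 CPM in WT. That is 16 and 20 fragments in the libraries labelled arr1 and 1 and 0 fragments in WT, a scaled ratio of 36.6 (95% exact binomial interval 6.17 to 1487). It was not called (adjusted p = 0.0839; log2 fold change 4.75, SE 1.00) and was called with the replicate block (adjusted p = 0.0475). WER (AT5G14750, chromosome 5, 4763452 to 4764738, minus strand), the root counterpart of GL1, had 0.227 and 0.195 CPM in libraries labelled arr1, against 0.362 and 0 CPM in WT. Those of WT lay on either side of those labelled arr1, both genotypes averaged under the level of 3 counts, and no fold is given. GL1, MYB23 and WER are paralogs, and how the authors' counting treated reads shared by such genes is not stated.

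Of the bHLH partners, EGL3 (AT1G63650, chromosome 1, 23599413 to 23602902, plus strand) can stand in for GL3 in trichomes, in the root epidermis and in pigment synthesis. EGL3 had 16.4 and 13.0 CPM in libraries labelled arr1, against 1.57 and 2.00 CPM in WT. Both libraries labelled arr1 were far above both of WT, with 145 and 134 fragments in the libraries labelled arr1 against 13 and 19 in WT. EGL3 averaged 14.7 ± 2.4 CPM in libraries labelled arr1 and 1.79 ± 0.308 CPM in WT (SD, n = 2 each), and it rose by the edgeR test (log2 fold change 3.02, SE 0.290, 95% interval 2.31 to 3.74, adjusted p = 0.0233). The log2 difference was 2.85 to 3.21 when any 1 of the 6 libraries was left out, but the adjusted p was then 0.0568 to 0.199 and the call was lost each time. For these genotypes the authors' deposited table lists EGL3 as higher with a log2 fold change of 3.10 and an FDR of 2.39e-09. That table lists 437 genes, 1.64% of those in the expression table, and 2 of the 10 regulators.

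GL3 (AT5G41315, chromosome 5, 16529139 to 16533156, plus strand) is the other bHLH partner, the one for which the complex is often named. GL3 was estimated at 1.47 and 0 counts in the libraries labelled arr1, against 1.31 and 0 counts in WT. In both genotypes only replicate 1 held any fragment of it, and both were under the level of 3 counts. EGL3 was thus the more abundant partner per unit of length in both, at 7.22 FPKM against 0.0452 FPKM for GL3 in the libraries labelled arr1, and at 0.858 FPKM against 0.0403 FPKM in WT. FPKM are fragments scaled to transcript length and library size.

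TTG1 (AT5G24520, chromosome 5, 8370587 to 8372847, minus strand), the WD40 scaffold that holds the MYB and bHLH proteins together, had 32.2 and 34.5 CPM in libraries labelled arr1, against 31.1 and 35.2 CPM in WT. The WT libraries lay on either side of those labelled arr1. No difference was called (adjusted p = 0.982; log2 fold change 0.01, SE 0.130), and the 95% interval of the difference was −0.31 to 0.33 on the log2 scale. The sign of a difference this small turned under several settings and is not given.

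TTG2 (AT2G37260, chromosome 2, 15644840 to 15647065, plus strand) encodes a WRKY transcription factor that acts in trichome growth and in the seed coat, and is a direct target of the complex in Arabidopsis. TTG2 had 3.51 and 3.80 CPM in libraries labelled arr1, against 0 and 0 CPM in WT. The 31 and 39 fragments of the libraries labelled arr1 faced 0 and 0 in WT, so against a floor of 3 counts per library TTG2 was at least 10.8-fold higher in those labelled arr1. It was called (adjusted p = 0.0468), and its call was lost whenever any 1 library was left out, at adjusted p of 0.0831 to 0.298. It was also lost when libraries were scaled by totals alone (adjusted p = 0.0511), without the filter (0.0598) and with the 4 libraries of arr1 and WT alone (0.0631). With the block its adjusted p was 0.018. The authors' deposited table lists TTG2 as higher with an infinite log2 fold change and an FDR of 2.1e-06.

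Among the R3-type repressors, CPC (AT2G46410, chromosome 2, 19049172 to 19050341, minus strand) is the protein that moves from hairless to hair cells of the root and there favours the hair fate. CPC had 7.37 and 7.49 CPM in libraries labelled arr1, against 3.26 and 2.11 CPM in WT. Both libraries labelled arr1 were above both of WT, with means of 7.43 ± 0.0886 CPM and 2.68 ± 0.811 CPM (SD, n = 2 each), and the fitted difference was 1.46 on the log2 scale (SE 0.328, 95% interval 0.64 to 2.27). It did not pass the test (adjusted p = 0.0786). It passed with the replicate block (adjusted p = 0.038) and in limma on log2(FPKM + 1) and log2(FPKM + 0.1), at adjusted p of 0.0434 and 0.0484.

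ETC1 (AT1G01380, chromosome 1, 147153 to 147942, plus strand), which acts in part in place of CPC and TRY, had 1.02 and 1.17 CPM in libraries labelled arr1, against 0.965 and 0.633 CPM in WT. The libraries did not overlap but lay close together, and ETC1 did not pass the test (log2 fold change 0.36, SE 0.510, 95% interval −0.90 to 1.62, adjusted p = 0.727). TRY (AT5G53200, chromosome 5, 21582774 to 21584145, plus strand), the repressor whose loss gives clustered trichomes, had 0.227 and 0.681 CPM in libraries labelled arr1, against 0 and 0 CPM in WT. That is 2 and 7 fragments in the libraries labelled arr1 and none in WT. Against the floor of 3 counts per library TRY was at least 1.34-fold higher in those labelled arr1, a value without a test.

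Genes of shoot epidermis and young leaves moved in the same libraries. The 4 shoot epidermis markers ATML1, PDF2, PDF1 and FDH summed to 682 and 717 CPM in libraries labelled arr1, against 83.7 and 89.1 CPM in WT. Of these markers 3 of 4 were called higher, led by ATML1, a homeobox gene of the outer cell layer of shoots (log2 fold change 3.90, SE 0.202, adjusted p = 0.00704), and PDF2 was called only with the replicate block (adjusted p = 0.0992 without it and 0.0286 with it), which made 4 of 4. The 3 leaf primordium markers FIL, YAB3 and YAB5 summed to 72.2 and 93.6 CPM in libraries labelled arr1, against 1.33 and 2.94 CPM in WT. Of these FIL and YAB3 were called higher, and YAB5 with the block alone (adjusted p = 0.0516 without it and 0.0127 with it). YAB3 and YAB5 passed the filter on low counts only through the libraries labelled arr1, so their differences were in part fixed by it. Without either library labelled arr1 the calls of ATML1, PDF1, FDH, FIL, YAB3 and STM, a meristem gene given below, were lost. Those of FDH and STM were lost on leaving out any single library. They were also lost with the libraries of arr1 and WT alone (adjusted p = 0.0502 for FDH and 0.0611 for STM). PDF1 also lost its call without either Pro35SARR1 library, and FIL without WT replicate 1. The 5 trichome markers GL2, MYB106, HDG11, ZWI and STI summed to 83.1 and 88.8 CPM in libraries labelled arr1, against 65.8 and 52.4 CPM in WT, with GL2 called higher, and ZWI too with the block. The 4 shoot meristem markers STM, WUS, CUC1 and CUC2 summed to 57.6 and 46.8 CPM in libraries labelled arr1, against 26.2 and 30.1 CPM in WT, and STM alone was called, higher. None of the 16 genes of these 4 lists was at 0 in both libraries of either genotype. The 6 root hair cell markers summed to 21.3 and 49.2 CPM in libraries labelled arr1, against 43.3 and 108 CPM in WT. None of these was called without the block, and with it PRP3 (log2 fold change −1.53, adjusted p = 0.0048) and RHD2 (log2 fold change −1.08, adjusted p = 0.00742) were called lower. The 5 markers of root tip and callus summed to 6.23 and 4.38 CPM in libraries labelled arr1, against 2.89 and 1.16 CPM in WT, with none of the 3 tested called, with or without the block, and LBD29, a callus gene, at 0 in WT. The part of these marker levels in the values of EGL3, TTG2, GL1, MYB23 and CPC was not tested. In whole explants more cells of a type and more RNA per cell cannot be told apart.

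EGL3 is annotated in RefSeq for build TAIR10.1 with 3 isoforms that encode the same protein of 596 residues. They differ in their 5′ end and in the number of exons, 7 in isoform 1 and 8 in isoforms 2 and 3. Isoform 2 also has a 3′ end of its own, while isoforms 1 and 3 share theirs, at 23603164. The deposited locus of EGL3 ends at 23602902, so the isoforms behind the estimated counts can differ from these models. Isoform 2 was estimated at 95.26 and 73.39 counts in the libraries labelled arr1, against 0.01 and 0.02 counts in WT. It took 66.6% and 64.1% of the gene in the libraries labelled arr1 and at most 0.1% in WT. Isoform 3 was estimated at 47.82 and 41.13 counts in the libraries labelled arr1, against 0 and 17.81 counts in WT, and isoform 1 at 0.01 and 0 counts, against 13.89 and 0 counts in WT. The WT libraries thus gave all of EGL3 to a different isoform each, at totals of 13.9 and 17.82 counts, so isoform shares at this depth are not stable between libraries of 1 genotype. The isoform estimates come from the authors' quantifier and were not tested. For TTG1, at 258 to 354 fragments in each library, isoform 1 took 71.1% and 68.2% in the libraries labelled arr1, and 66.8% and 70.7% in WT. TTG2 was all isoform 1 in the first library labelled arr1 and 72.7% isoform 1 in the second.

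**Figure D2:**
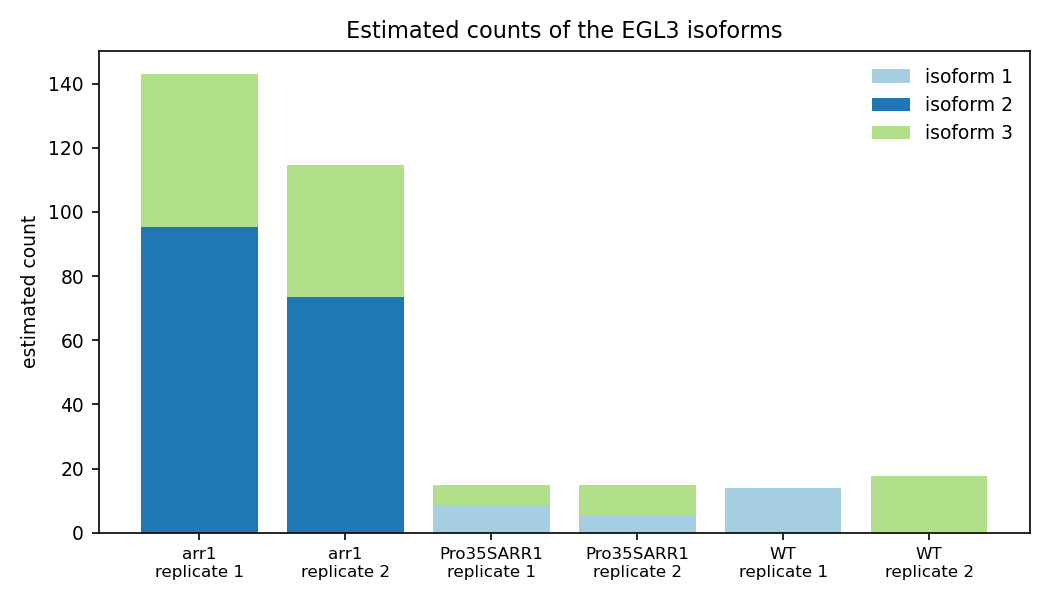
Estimated counts of the 3 EGL3 isoforms, stacked, in each library. Isoform 2 makes up 66.6% and 64.1% of EGL3 in the libraries labelled arr1 and is at or near 0 in the other 4, where all EGL3 together comes to between 13.9 and 17.82 counts.

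The windows at the starts of the 5 regulators with the largest fitted differences in arr1 against WT are shown because TTG2 and CPC are known targets of the MYB-bHLH complex, so motifs of its partners can be looked for in them. Each runs from 250 bases before to 50 bases after the annotated gene start, 5′ to 3′ on the gene's own strand, from RefSeq in build TAIR10.1, where all 10 regulators have one. They lie at chr2:15644561-15644860 (TTG2, plus strand), chr5:16127475-16127774 (MYB23, plus strand), chr3:10363558-10363857 (GL1, minus strand), chr1:23599163-23599462 (EGL3, plus strand) and chr2:19050320-19050619 (CPC, minus strand). Capitals mark matches to a MYB core, AACNG or its reverse complement CNGTT, and to an E-box, CANNTG, the kind of sequence that bHLH proteins bind.
TTG2: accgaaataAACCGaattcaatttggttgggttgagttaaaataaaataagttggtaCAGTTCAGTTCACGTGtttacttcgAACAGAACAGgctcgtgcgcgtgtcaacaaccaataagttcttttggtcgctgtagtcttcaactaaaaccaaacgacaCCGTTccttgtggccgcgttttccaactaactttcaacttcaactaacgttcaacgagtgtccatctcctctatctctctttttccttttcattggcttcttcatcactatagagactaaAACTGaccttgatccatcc
MYB23: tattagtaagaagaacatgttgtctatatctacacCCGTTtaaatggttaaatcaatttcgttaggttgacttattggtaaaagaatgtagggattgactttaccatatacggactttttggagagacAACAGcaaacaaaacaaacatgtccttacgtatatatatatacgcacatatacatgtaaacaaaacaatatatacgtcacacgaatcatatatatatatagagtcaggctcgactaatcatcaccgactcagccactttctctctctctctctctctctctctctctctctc
GL1: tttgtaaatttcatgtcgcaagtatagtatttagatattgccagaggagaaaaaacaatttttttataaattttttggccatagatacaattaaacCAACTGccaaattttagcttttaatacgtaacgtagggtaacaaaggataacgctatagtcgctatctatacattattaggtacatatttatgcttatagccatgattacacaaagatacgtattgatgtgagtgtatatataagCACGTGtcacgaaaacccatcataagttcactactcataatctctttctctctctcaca
EGL3: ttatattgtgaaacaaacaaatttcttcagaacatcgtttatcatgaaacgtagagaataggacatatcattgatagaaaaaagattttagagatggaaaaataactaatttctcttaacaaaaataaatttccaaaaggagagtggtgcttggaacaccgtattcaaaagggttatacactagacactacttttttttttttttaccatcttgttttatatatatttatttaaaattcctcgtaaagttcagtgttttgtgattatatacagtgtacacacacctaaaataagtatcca
CPC: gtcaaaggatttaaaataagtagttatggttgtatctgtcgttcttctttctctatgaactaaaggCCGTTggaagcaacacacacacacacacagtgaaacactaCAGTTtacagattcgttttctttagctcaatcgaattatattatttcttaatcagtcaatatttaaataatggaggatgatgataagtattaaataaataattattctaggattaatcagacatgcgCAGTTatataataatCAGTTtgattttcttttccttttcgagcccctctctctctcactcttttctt

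The MYB core was found in 76.6% of all 27443 windows of this length in the genome and the E-box in 61.7%, with a median of 1 match a window for either, so a single match is common. TTG2 held 7 MYB core matches, and 1.59% of windows held as many. Of these, 4 stand as 2 pairs, CAGTTCAGTT starting at −193 and AACAGAACAG starting at −168 from the gene start, with an E-box of the form CACGTG at −183 directly after the first pair. CPC held 4 MYB core matches and no E-box, and 13.72% of windows held as many MYB cores. MYB23 held 2 MYB cores and no E-box, as many as in 47.96% of windows. GL1 held 1 MYB core, which lies inside the first of its 2 E-boxes, and its second E-box is again CACGTG, at −9. EGL3, whose count rose, held neither motif in this window, and GL3 held 1 of each. The EGL3 window is set at the start of isoform 3. The annotated starts of isoforms 1 and 2, at 23599479 and 23599505, lie beyond its end at 23599462. WER, TTG1 and TRY had no MYB core and 1 E-box each, and ETC1 had 2 of each. The core AGATT, read on both strands and part of the sequence that type-B response regulators bind, was in the windows of 4 of the 10 regulators, GL1, WER, EGL3 and CPC, against 69.7% of all windows. The W-box core TTGAC, read on both strands and bound by WRKY proteins such as TTG2, was in 4 of 10, MYB23, WER, TTG2 and CPC, against 50.5% of all windows. A match is a description of letters, not a binding site.

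**Figure D3:**
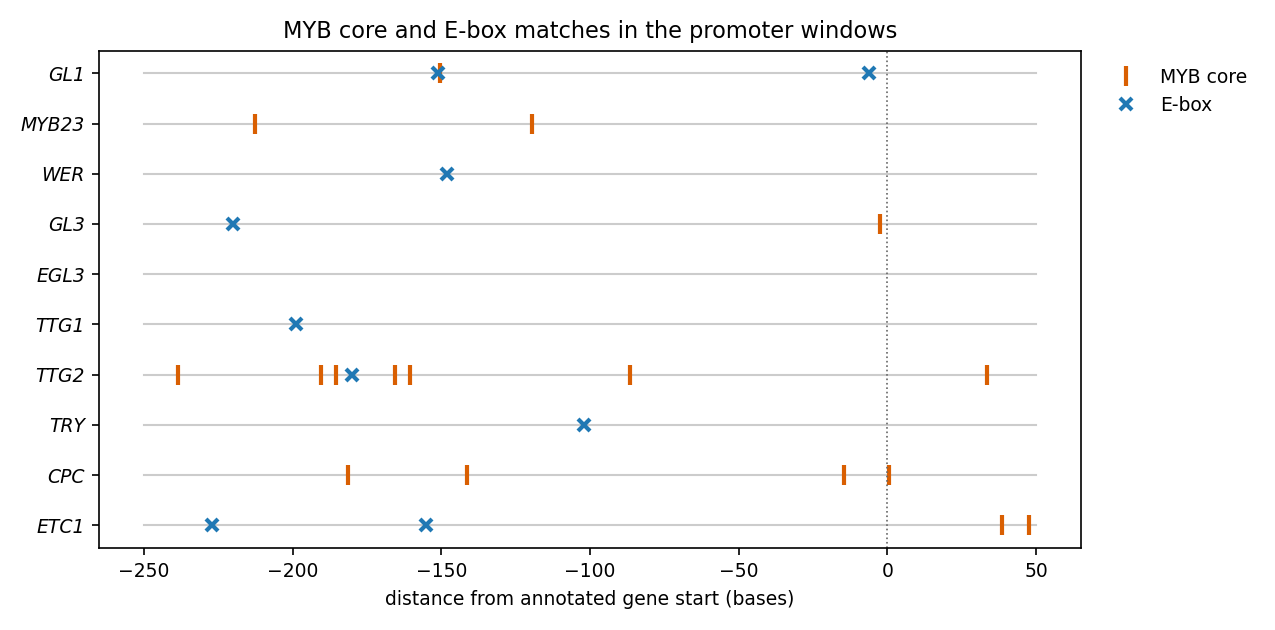
Middle of each MYB core match (bars) and E-box match (crosses) in the windows of the 10 regulators, by distance in bases from the annotated gene start (dotted line), on each gene's strand. TTG2 holds 7 MYB cores and 1 E-box, CPC 4 MYB cores, and EGL3 none of either.

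Ordered by level per unit of length, TTG1 led in each genotype, at 23.4 ± 1.29 FPKM in the libraries labelled arr1, 23.8 ± 2.07 FPKM in Pro35SARR1 and 23.8 ± 2.1 FPKM in WT (SD, n = 2 each). CPC followed in each, at 18.3 ± 0.325 FPKM in the libraries labelled arr1, 11.6 ± 2.08 FPKM in Pro35SARR1 and 6.74 ± 2 FPKM in WT. In the libraries labelled arr1 EGL3 came next at 7.22 ± 1.14 FPKM, apart from its neighbours. ETC1, GL1, MYB23 and TTG2 came after it at 2.81, 2.69, 2.28 and 2.24 FPKM, and each overlapped its neighbour within the libraries, so their order is not resolved. TRY stood at 0.962 FPKM, WER at 0.32 FPKM and GL3 at 0.0452 FPKM. In Pro35SARR1 and in WT CPC was followed by ETC1, at 3.64 and 2.1 FPKM, and then by EGL3, at 0.812 and 0.858 FPKM, with the other 6 regulators at or under 0.28 FPKM.

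By class, the R3-type repressors together summed to 21.1 and 23 FPKM in the libraries labelled arr1, 13.6 and 16.8 FPKM in Pro35SARR1, and 10.7 and 7 FPKM in WT. The bHLH genes summed to 8.12 and 6.41 FPKM in the libraries labelled arr1, 1.01 and 1.13 FPKM in Pro35SARR1, and 0.851 and 0.946 FPKM in WT. The R2R3-MYB activators summed to 4.71 and 5.87 FPKM in the libraries labelled arr1, 0.174 and 0.201 FPKM in Pro35SARR1, and 0.944 and 0 FPKM in WT. Activator, bHLH and repressor sums were thus each higher in both libraries labelled arr1 than in the other 4, while the WD40 level lay between 22.3 and 25.3 FPKM in all 6. These sums carry no test.

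**Figure D4:**
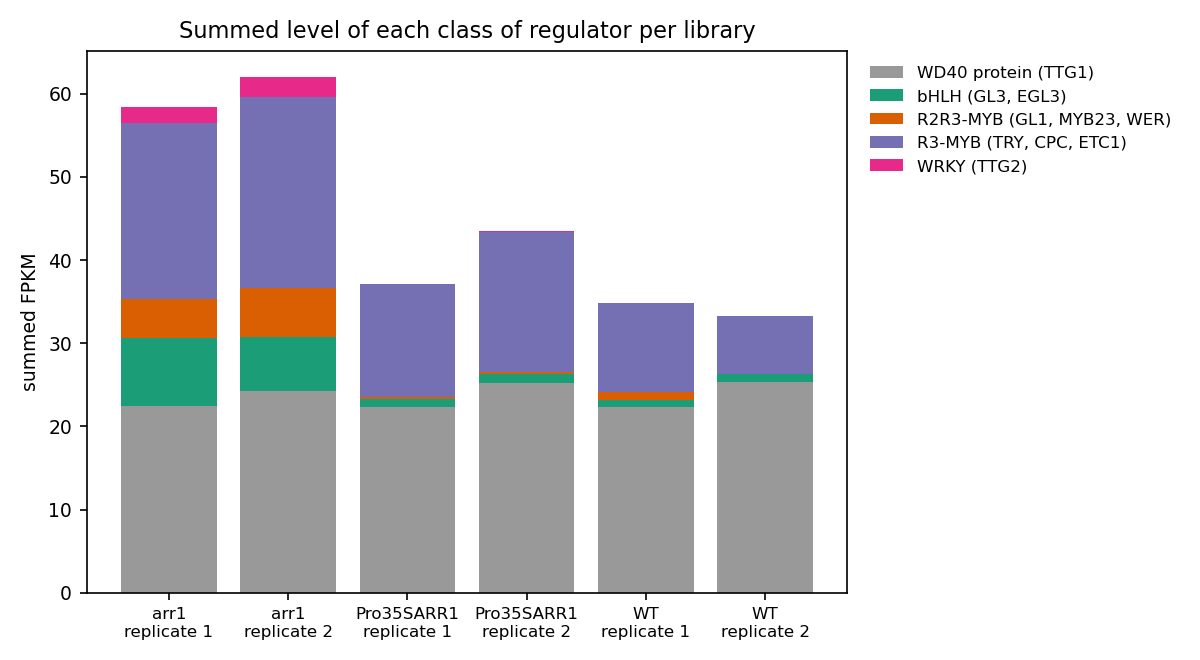
FPKM summed over the regulators of each class in every library, stacked from 0. TTG1 makes 22.3 to 25.3 FPKM in each library, the R3-type MYB genes 21.1 and 23 FPKM in the libraries labelled arr1 against 10.7 and 7 FPKM in WT, and the bHLH, R2R3-MYB and WRKY layers are thick only in the libraries labelled arr1.

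The comparison of Pro35SARR1 with WT asks what a high level of ARR1 does in the same explants. None of the 7 regulators tested was called in either direction, where 0.0885% of all genes were called higher and 0% lower. None was called with the replicate block either, where the shares were 1.18% higher and 0.890% lower. ARR1 was higher in Pro35SARR1 (log2 fold change 4.91, SE 0.117, adjusted p = 0.000397). Across all genes 890 had an unadjusted p under 0.05 on the higher side and 872 on the lower side by edgeR, with 16 and 0 called, and DESeq2 called 189 and 79. No regulator had an unadjusted edgeR or DESeq2 p under 0.05, and limma on log2(FPKM + 1) gave 2 of 4 tested such a p and called 0.

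EGL3 had 1.71 and 1.67 CPM in Pro35SARR1, against 1.57 and 2.00 CPM in WT. The WT libraries lay on either side, and the difference was −0.09 on the log2 scale (SE 0.312, 95% interval −0.86 to 0.68, adjusted p = 0.961). TTG1 had 31.6 and 35.1 CPM in Pro35SARR1, against 31.1 and 35.2 CPM in WT (95% interval of the log2 difference −0.31 to 0.33). CPC had 4.10 and 5.15 CPM in Pro35SARR1, against 3.26 and 2.11 CPM in WT. The libraries of CPC did not overlap and those of Pro35SARR1 were the higher, but the difference did not pass the test (log2 fold change 0.77, SE 0.331, 95% interval −0.05 to 1.59, adjusted p = 0.535). ETC1 had 1.37 and 1.42 CPM in Pro35SARR1, against 0.965 and 0.633 CPM in WT, likewise without overlap and not called (adjusted p = 0.713; log2 fold change 0.73, SE 0.500). CPC and ETC1 were the 2 of 7 with both Pro35SARR1 libraries above both of WT, and none of the 7 had both below, where 18.7% of all genes lay above and 18.6% below. With the libraries of arr1 and WT alone ETC1 was under the filter on low counts, so its passing rested on those of Pro35SARR1. The count of 2 was thus in part fixed by the filter.

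GL1, MYB23 and TRY had no count in either Pro35SARR1 library and TTG2 had 0 and 0.129 CPM there. In WT GL1 and MYB23 had 0.121 and 0 CPM each and TRY and TTG2 had none. For these 4 genes, and for WER at 0.114 and 0.129 CPM in Pro35SARR1, against 0.362 and 0 CPM in WT, both genotypes averaged under the level of 3 counts, and a difference was not detectable at this depth. GL3 had 3.18 and 4.49 fragments in Pro35SARR1, against 1.22 and 0 fragments in WT, or 0.363 and 0.578 CPM against 0.148 CPM and near 0. The ratio of its fragments, scaled for library size, was 8.72, with a 95% exact binomial interval of 1.17 to 387, and GL3 was not tested. EGL3 and GL3 were both low in Pro35SARR1, at 0.812 ± 0.00608 FPKM and 0.257 ± 0.0868 FPKM (SD, n = 2 each).

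The comparison of Pro35SARR1 with arr1 sets the genotypes with the most and the least ARR1 by their labels side by side. It uses the same libraries as the comparisons above, so its values are not independent of them. EGL3, TTG2 and MYB23 were lower in Pro35SARR1. Of the 7 regulators tested 3 were called lower and 0 higher, where 2.38% of all genes were called lower and 4.09% higher. With the replicate block GL1 was called lower as well (adjusted p = 0.0426), making 4, where 8.82% of all genes were called lower and 11.5% higher. In 5 of the 7 both Pro35SARR1 libraries lay below both libraries labelled arr1, which held for 29.8% of all genes, and in 1, ETC1, above them, which held for 28.9%. The counts of lower genes include TTG2, MYB23 and GL1, which passed the filter on low counts only through the libraries labelled arr1. Those counts were thus in part fixed by the filter. ETC1, the 1 above, was under the filter with the libraries of arr1 and WT alone. Its passing rested on those of Pro35SARR1, so its place above was in part fixed by the filter too.

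EGL3 had 1.71 and 1.67 CPM in Pro35SARR1, against 16.4 and 13.0 CPM in the libraries labelled arr1. It fell by the edgeR test (log2 fold change −3.12, SE 0.292, 95% interval −3.84 to −2.39, adjusted p = 0.0117), and the call was lost on leaving out either library of these 2 genotypes, at adjusted p of 0.0704 to 0.125. TTG2 had 0 and 0.129 CPM in Pro35SARR1, against 3.51 and 3.80 CPM in libraries labelled arr1, or 1 fragment against 70. The scaled ratio of its fragments was 0.0153 (95% exact binomial interval 0.000382 to 0.0881), and it was called (adjusted p = 0.0385). That call was lost without Pro35SARR1 replicate 1 or 2 (adjusted p = 0.156 and 0.117), without replicate 1 or 2 of the libraries labelled arr1 (0.204 and 0.245), and without the filter (0.0527).

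MYB23 had 0 and 0 CPM in Pro35SARR1, against 1.81 and 1.95 CPM in libraries labelled arr1, at least 5.56-fold lower against the floor of 3 counts per library. Its adjusted p was 0.0499, at the threshold, and it was 0.0298 with the block. Leaving out any 1 library gave 0.0631 to 0.268, scaling by totals alone 0.0506, no filter 0.0696 and counts divided by the value of a fragment 0.0523. GL1 had 0 and 0 CPM in Pro35SARR1, against 1.13 and 1.65 CPM in libraries labelled arr1, at least 4.12-fold lower and not called (adjusted p = 0.0665). TRY had 0 and 0 CPM, against 0.227 and 0.681 CPM in libraries labelled arr1, at least 1.34-fold lower and not tested.

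CPC had 4.10 and 5.15 CPM in Pro35SARR1, against 7.37 and 7.49 CPM in libraries labelled arr1, and did not pass the test (log2 fold change −0.69, SE 0.316, 95% interval −1.47 to 0.10, adjusted p = 0.246). Its Pro35SARR1 libraries thus lay between those labelled arr1 and those of WT. ETC1 had 1.37 and 1.42 CPM in Pro35SARR1, against 1.02 and 1.17 CPM in the libraries labelled arr1 (log2 fold change 0.37, SE 0.490, adjusted p = 0.684). TTG1 again showed no called difference (95% interval −0.32 to 0.32 on the log2 scale). GL3 had 8 fragments in Pro35SARR1 and 1 in the libraries labelled arr1, a scaled ratio of 8.57 (95% exact binomial interval 1.15 to 380), untested.

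The shoot epidermis markers, summed, stood at 82.2 and 84.2 CPM in Pro35SARR1, against 682 and 717 CPM in libraries labelled arr1, and 4 of 4 were called lower. Of these PDF2 had 0.000224 and 2.67 CPM in Pro35SARR1. The leaf primordium markers stood at 1.98 and 3.47 CPM in Pro35SARR1, against 72.2 and 93.6 CPM in libraries labelled arr1, and 3 of 3 were called lower, although YAB3 and YAB5 passed the filter only through the libraries labelled arr1. The trichome markers stood at 80.5 and 61.8 CPM in Pro35SARR1, against 83.1 and 88.8 CPM in libraries labelled arr1, with GL2 called lower of 5, and MYB106 too with the block (adjusted p = 0.139 without it and 0.0422 with it). The root hair cell markers stood at 75.6 and 213 CPM in Pro35SARR1, against 21.3 and 49.2 CPM in libraries labelled arr1, and RHD2 was the 1 of 6 called higher (adjusted p = 0.0464). With the block 5 of 6 were called higher, RHD6, RSL4, EXP7 and PRP3 in addition, at adjusted p of 0.0514 to 0.24 without it and 0.00108 to 0.0174 with it. The root tip and callus markers stood at 0.912 and 0.772 CPM in Pro35SARR1, where WOX5 and LBD29 were at 0, against 6.23 and 4.38 CPM in libraries labelled arr1, and PLT2 was called lower (adjusted p = 0.0445), as was WOX5 with the block (adjusted p = 0.041). PLT2 passed the filter only through the libraries labelled arr1. WOX5 passed it through replicate 1 of the libraries labelled arr1 and replicate 1 of WT. The shoot meristem markers stood at 57.4 and 52.7 CPM in Pro35SARR1, against 57.6 and 46.8 CPM in libraries labelled arr1, with STM called lower (adjusted p = 0.0289) and, with the block alone, WUS called higher (adjusted p = 0.00341). Each marker called here without the block lost its call when either library labelled arr1 was left out, at adjusted p of 0.0596 to 0.266. Their part in the values of EGL3, TTG2 and MYB23 was not tested.

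**Figure D5:**
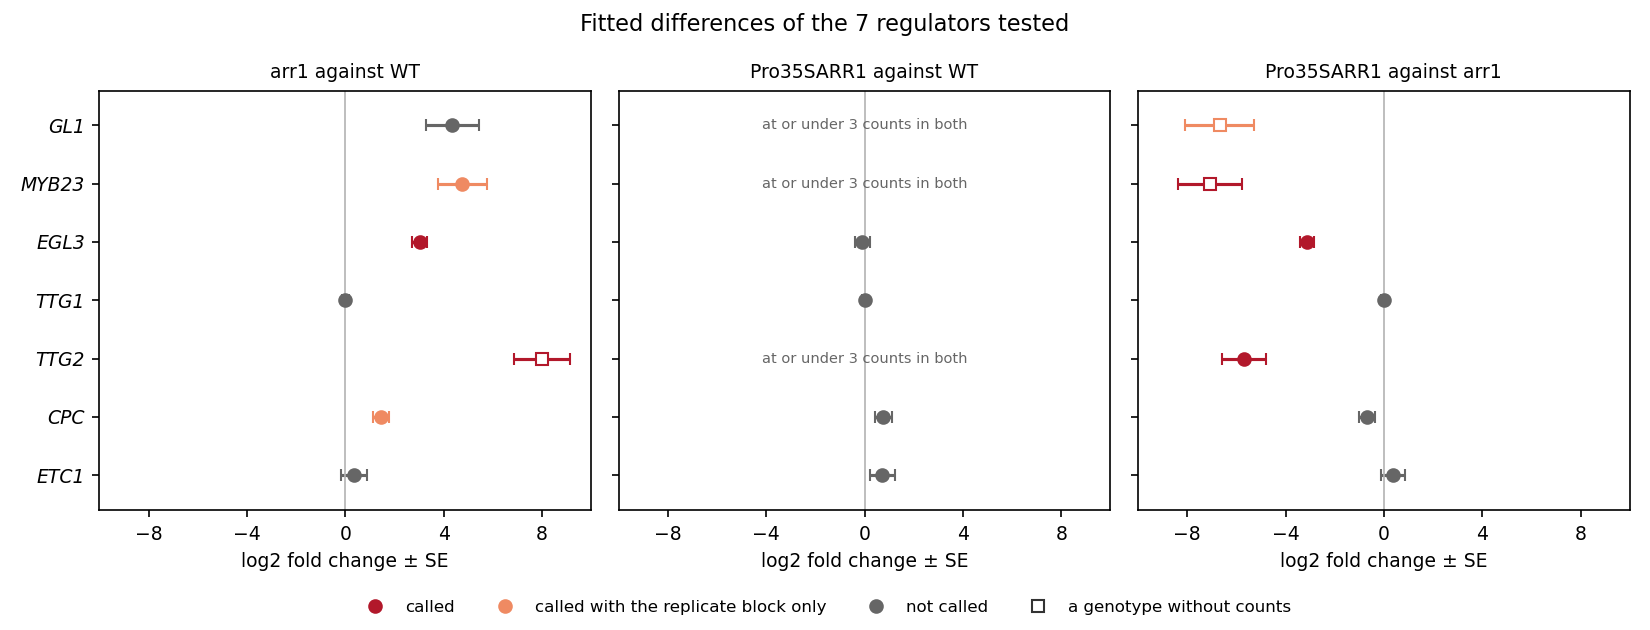
Fitted log2 fold changes with their SE for the 7 regulators tested, 1 panel a comparison; open squares are genes without counts in 1 genotype, whose fitted value is no bound. EGL3 lies at 3.02 in arr1 against WT, at −0.09 in Pro35SARR1 against WT and at −3.12 in Pro35SARR1 against arr1, and TTG1 lies within 0.01 of 0 in each.

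The wider pathway was read from lists of relatives and targets. Of the genes named below, GL2, MYC1, DFR and LDOX passed the filter on low counts only through the libraries labelled arr1, as GL1, MYB23 and TTG2 did. GL2, the homeobox gene that the complex switches on to start trichome growth and to block root hairs, had 4.87 and 9.34 CPM in libraries labelled arr1, against 0.482 and 0.211 CPM in WT. Both libraries labelled arr1 were above both of WT, though they differed between themselves, and GL2 rose (log2 fold change 4.33, SE 0.603, 95% interval 2.84 to 5.82, adjusted p = 0.0361). That call was lost with the libraries of arr1 and WT alone (adjusted p = 0.0647) and in limma on log2(FPKM + 0.1) (adjusted p = 0.0836). Leaving out any 1 library lost the call, at adjusted p of 0.0791 to 0.271, and limma on log2(FPKM + 1) gave a log2 difference of 1.73 (adjusted p = 0.0591). In Pro35SARR1 GL2 had 0.462 and 0.386 CPM, not called against WT (adjusted p = 0.953) and lower than in the libraries labelled arr1 (log2 fold change −4.12, SE 0.591, adjusted p = 0.0236), a call lost without any 1 library of these 2 genotypes (0.12 to 0.194). Of the 8 targets and trichome growth genes, all tested, GL2 was the 1 called higher in arr1 against WT and 0 were lower, and the list's median log2 fold change was 0.44 beside −0.00196 for all genes tested. With the block ZWI, a kinesin of trichome branching, was called too (log2 fold change 0.65, adjusted p = 0.0414).

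MYC1, a bHLH relative of EGL3 that also binds the MYB partners, had 7.33 and 7.13 CPM in libraries labelled arr1, against 0.919 and 1.37 CPM in WT. The libraries did not overlap and MYC1 rose (log2 fold change 2.67, SE 0.385, adjusted p = 0.0372). In Pro35SARR1 it had 0.456 and 0.515 CPM, not called against WT (log2 fold change −1.13, adjusted p = 0.505) and lower than in the libraries labelled arr1 (log2 fold change −3.80, SE 0.422, adjusted p = 0.0153), a call lost without any 1 library of these 2 genotypes (0.0876 to 0.145). Leaving out 1 library gave adjusted p of 0.0801 to 0.275 in arr1 against WT, and the call was lost each time. MYC1 also lost this call with the libraries of arr1 and WT alone (adjusted p = 0.0666) and in limma on log2(FPKM + 0.1) (adjusted p = 0.0671). The bHLH gene TT8 of seed coat pigment, under the filter, had 0.34 and 0.195 CPM in libraries labelled arr1, 0.228 and 0.386 CPM in Pro35SARR1, and 0.482 and 0.949 CPM in WT. Of the 7 bHLH and MYB relatives MYC1 and MYB82 were tested, and MYB82 was not called in arr1 against WT (log2 fold change 1.50, SE 0.788, adjusted p = 0.33).

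None of the other R3-type repressors ETC2, ETC3, TCL1 and TCL2 was tested. TCL1 had no fragment in any library, and ETC2 had 3 and 1 fragments in the libraries labelled arr1, 0 and 1 in Pro35SARR1, and none in WT. ETC3 had 0 and 2 fragments in the libraries labelled arr1, 2 and 0 in Pro35SARR1, and 4 and 1 in WT, and TCL2 had between 1 and 4 fragments in every library. These levels show no order between the genotypes beyond single fragments.

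Among 5 anthocyanin genes that the same bHLH and WD40 proteins control with other MYB partners, 4 were tested and 2 rose in arr1 against WT, where 1.09% of all genes were called higher. These 2, DFR and LDOX, passed the filter on low counts only through the libraries labelled arr1. Their count was thus in part fixed by the filter. DFR, an enzyme that makes leucoanthocyanidins, had 3.40 and 3.02 CPM in libraries labelled arr1, against 0.121 and 0.211 CPM in WT (scaled fragment ratio 20.7, 95% exact binomial interval 6.76 to 103, adjusted p = 0.0461). LDOX, the next enzyme, had 3.29 and 7.10 CPM in libraries labelled arr1, against 0.241 and 0.105 CPM in WT (scaled fragment ratio 34.6, interval 11.5 to 171, adjusted p = 0.0372). Both were lower in Pro35SARR1 than in the libraries labelled arr1, DFR at 0.228 and 0.515 CPM (adjusted p = 0.0486) and LDOX at 0.57 and 0.643 CPM (adjusted p = 0.0428), and neither was called in Pro35SARR1 against WT. All 4 of these calls were lost on leaving out either library labelled arr1. The 2 in arr1 against WT were lost on leaving out any single library, at log2 differences of 3.74 to 5.36. They were also lost with the libraries of these 2 genotypes alone (adjusted p = 0.0648 for DFR and 0.0693 for LDOX). BAN, the enzyme that turns anthocyanidins into tannin precursors, lay on the other side, at 0.34 and 0.0973 CPM in libraries labelled arr1, against 1.33 and 0.738 CPM in WT. Its libraries did not overlap and the difference did not pass the test (adjusted p = 0.201; log2 fold change −2.16, SE 0.807). In Pro35SARR1 BAN had 1.71 and 0.901 CPM, above both libraries labelled arr1 and again not called (log2 fold change 2.43, adjusted p = 0.131).

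Of 6 GIS-type zinc finger genes, which carry hormone signals to the trichome genes, 4 were tested and 0 were called in arr1 against WT, with a median log2 fold change of 0.30. With the block ZFP6 was called higher (log2 fold change 0.78, adjusted p = 0.0231) and ZFP5 lower (log2 fold change −1.08, adjusted p = 0.0103). In Pro35SARR1 against arr1 ZFP5 was called higher (log2 fold change 1.12, adjusted p = 0.0373) and ZFP6 lower (log2 fold change −0.90, adjusted p = 0.0342). Both calls were lost on leaving out any 1 library of these 2 genotypes, ZFP5 at adjusted p of 0.0922 to 0.242 and ZFP6 at 0.124 to 0.222. ZFP5 also lost its call with scaling by totals alone (0.0532), and ZFP6 without WT replicate 2 (0.0503). Of 6 genes of root epidermis position and hair fate 5 were tested and none was called in arr1 against WT, with a median of 0.31. In Pro35SARR1 against arr1 none of these was called without the block, and with it RHD6 and RSL4 were called higher and SCM and JKD lower (adjusted p = 0.0234 and 0.0257). In Pro35SARR1 against WT none of the tested genes of these lists was called, with or without the block. Of the markers none was called there either, except PRP3 and WUS with the block, both higher (adjusted p = 0.0364 and 0.0297).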

How the data were processed

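Illumina libraries of total RNA from root explants, 6 in all, were grouped and numbered as in the sample titles. AOE in the series description was taken as Pro35SARR1. CASAVA and DESeq appear in the submitters' processing notes with neither version nor role. No source used here names the aligner, quantifier, build or annotation, or says whether strand was used.

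Per the file headers, each of 35593 isoforms of 26726 genes has a deposited estimated count and FPKM per library, and an isoform length, a deposited score column. For genes with 1 isoform, 89.9% to 90.9% of the deposited low estimated counts are whole multiples, within 0.02, of a step of 0.8546 to 1.1516 that differs between libraries, which gives 8013952 to 10000770 fragments a library. For arr1 against WT the authors' table gives a log2 fold change and an adjusted p-value (FDR). Gene starts lie within 500 bp of the TAIR10.1 annotation for 97.4% of 25934 matched genes, so windows were read at TAIR10.1's own starts. No other gene locus of the table overlaps one of the 10.

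Estimated counts were summed per gene, rounded, filtered by filterByExpr (minimum count 10) and TMM-scaled. The edgeR 4.0.16 quasi-likelihood test in R 4.3.3 took all 6 libraries, 1 mean per genotype, no block and Benjamini-Hochberg adjustment over 18083 genes (threshold 0.05, 3 residual degrees of freedom, coefficient of biological variation 0.214). An SE is a log2 fold change over the square root of its F. The fit was tested on simulated data. Genes at 0 in a genotype were set against a floor of 3 counts per library. Alternatives used DESeq2 1.42.0 and limma 3.58.1 (mean FPKM of at least 1). Libraries with the same number deviated together from their genotype means over 18083 genes (Pearson's r of 0.29 between arr1 and WT, 0.499 between Pro35SARR1 and WT, and 0.291 between Pro35SARR1 and arr1). No label says what such libraries share, so the main fit did not pair them and the replicate block was run as an alternative. The block is given where it changes a call of a regulator or a listed gene.

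The regulators and all lists were chosen with earlier results of these data known. Named by rule were the 10 regulators, ETC2, ETC3, TCL1, TCL2, MYC1, TT8 and GL2, and listed genes called in a comparison with WT, up to 4 a list. ZWI, ZFP5, ZFP6, BAN, RSL4, RHD6, SCM, JKD and MYB82 fall outside it and were named after their values were seen, as were genes listed as markers.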

Additional observations from a re-analysis of the deposited data

How the results depend on the processing

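With 2 libraries a genotype no call of a regulator in arr1 against WT outlasted the loss of a library, and genes under about 10 counts could be compared only by fragments. Genes called in arr1 against WT numbered 541, and 346 with scaling by totals alone (63% of them higher, against 36.6%, with the median of all genes moved by 0.127 on the log2 scale), 1365 in DESeq2, 312 without the filter, 2847 with the replicate block, 96 with the 4 libraries of the 2 genotypes alone, and 0 to 37 with 1 library left out, both 0 values without a library labelled arr1. Regulators called there numbered 2, and 1, 1, 4 and 1 with totals alone, without the filter, with the replicate block and with the 2 genotypes alone, and 0 to 0 with 1 library left out. In Pro35SARR1 against WT the 16 genes called became 268 in DESeq2, 375 with the replicate block, 29 in limma on log2(FPKM + 1), 2 with the 2 genotypes alone and 1 to 4 with 1 library left out, and the regulators called stayed at 0 under each alternative run. In Pro35SARR1 against arr1 the 1170 genes called became 1840 in DESeq2, 3679 with the replicate block and 5 to 1082 with 1 library left out, 5 to 40 where that library was of these genotypes. The 3 regulators called there became 1 without the filter, 1 in limma on either FPKM scale, where 4 regulators could be tested, and 0 to 2 with 1 library left out, 0 where it was of these genotypes. Apart from the calls named above for MYB23, CPC and GL1, the replicate block changed no call of a regulator.

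EGL3 was higher in arr1 against WT under all 14 alternatives (2.14 to 3.21 on the log2 scale) and lower in Pro35SARR1 against arr1 under all 14 (−3.27 to −2.17). TTG2, GL1, MYB23 and CPC kept their direction in both comparisons under every alternative in which they were tested. Differences near 0 changed sign. In arr1 against WT TTG1 turned to −0.003 without the filter and to −0.020 and −0.021 in limma, and ranged from −0.089 to 0.093 with 1 library left out. In Pro35SARR1 against WT it ranged from −0.083 to 0.098 and EGL3 from −0.26 to 0.099 with 1 library left out. In Pro35SARR1 against arr1 TTG1 turned to 0.005 in DESeq2, 0.006 without the filter, 0.020 and 0.021 in limma and 0.007 with the 2 genotypes alone, and ranged from −0.074 to 0.074 with 1 library left out. The causes were not tested. Counts divided by the value of a fragment, chosen after seeing the data, lost 1 call among the regulators, MYB23 in Pro35SARR1 against arr1.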
